A study of Mus musculus with 2 samples.

Results

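The 10 genes described here, Axin2, Lgr5, Tbx3, Rnf43, Znrf3, Rhbg, Rgn, Lect2, Glul and Slc1a2, are known targets of Wnt signalling in hepatocytes near the central vein of the mouse liver lobule. They were taken by gene name, and all 10 were found among the 18193 genes named by single-gene probe sets of the array, with 22 probe sets between them. The samples were livers of male wild-type C57BL/6 mice, 8 weeks old. In 3 mice both kidneys were made ischaemic while warm for 30 minutes and then reperfused, called kidney injury here. The other 3 mice had sham surgery, and livers were taken after 24 hours. From each group, 100 mg of frozen liver of 3 different mice was combined into 1 pool and read on 1 Affymetrix array, so there were 2 arrays, no replicates and no test, and every difference below describes these 2 pools. Spread between mice is unknown, and with whole liver RNA fewer cells of a type and less RNA per cell cannot be told apart.

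In the liver lobule, blood runs from the portal field to the central vein, and hepatocytes along this path carry out different tasks. Endothelial cells of the central vein are known to secrete Wnt ligands and R-spondin 3, which stabilise beta-catenin in the neighbouring hepatocytes and keep the pericentral programme on. Pericentral hepatocytes capture ammonium that escaped the urea cycle and fix it into glutamine, and they hold much of the liver's drug-metabolising capacity. Several targets of the pathway feed back on it: Lgr5 is a receptor for R-spondins, Rnf43 and Znrf3 are ubiquitin ligases that remove Wnt receptors from the cell surface, and Axin2 is a scaffold of the complex that degrades beta-catenin.

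The transcript of Slc1a2 was the member with the lowest value after kidney injury. It was at least 11.1-fold under the sham pool by its brightest probe set, and at least 3.31-fold by its second brightest. Znrf3 was 2.13-fold lower. Lect2, Rgn, Lgr5 and Glul had values 1.38-fold to 1.67-fold lower, and Tbx3 and Axin2 had values 1.16-fold and 1.22-fold higher, that of Tbx3 with the opposite sign when hybridisation controls set the reference. Signals are the deposited array intensities, and folds are ratios of signal plus 16, a pseudocount that shrinks the differences of dim probe sets. A signal was called dim when it was under the median of its array, 257.0 after sham surgery and 254.1 after kidney injury. A gene passed the filter when 1 of its signals was not dim, and it is represented by whichever of its probe sets was brightest on average over both arrays. By this rule 8 members passed, 7 of them on both arrays and Slc1a2 in the sham pool only, while Rnf43 and Rhbg were dim on both arrays.

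Of the 8 members past the filter, 2 had a signal lower by 2-fold or more, called past 2-fold here, beside 9.59% of the 13117 genes past the filter. Such counts use the signals as measured, dim ones included. None was past 2-fold on the higher side, beside 8.71% of those genes. The median log2 difference of the 8 members, kidney injury minus sham, was -0.56, beside -0.01 over all genes. Without Slc1a2 the median of the other 7 members was -0.49. In all, 6 members had lower and 2 had higher signals, beside 50.7% of genes with a lower signal. Probe sets of the same gene disagreed on these arrays with an SD of 0.72 in log2 difference. The log2 differences from Znrf3 to Glul spanned 0.62, so the order of these 5 members lies within this SD. Those of Rgn, Lgr5, Glul, Tbx3 and Axin2 were each smaller in size than the SD, so their directions are uncertain too.

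**Figure D1:**
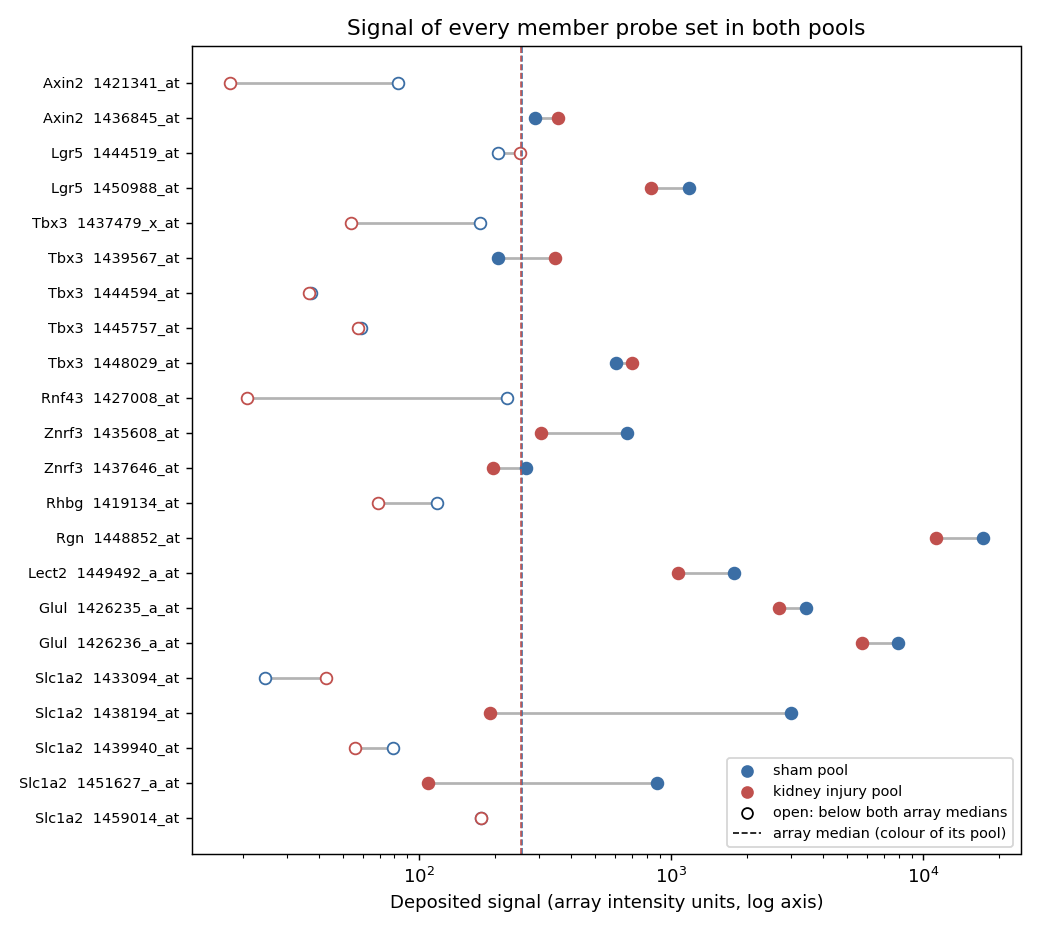
Deposited signal on a log axis for each of the 22 member probe sets, with the sham pool in blue and the kidney injury pool in red, 1 array each. Open symbols are the 10 probe sets under both array medians (dashed lines); the 2 Slc1a2 probe sets that were bright in the sham pool lie left of the dashed lines in the kidney injury pool.

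Slc1a2 encodes GLT-1, a sodium-dependent glutamate transporter that pericentral hepatocytes use to take up glutamate for glutamine synthesis. Its brightest probe set had a signal of 2980 after sham surgery and 191.2 after kidney injury. The second brightest had signals of 878.4 and 108.6 in the same order. Both went from above the sham array's median to below the other array's median. As measured, the log2 differences were -3.85 and -2.84. Against the median of the dim array, the signals were lower by at least 11.1-fold and 3.31-fold. The other 3 Slc1a2 probe sets were dim in both pools, with signals from 24.6 to 176.7, and give no fold. A further probe set, which the annotation assigns to Slc1a2 together with another gene, was dim too, with 205.6 and 98.0, and was left out.

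Promoter windows in the RefSeq table of build GRCm38.p6 run from 250 bases before to 50 bases after a gene's start, and 5 of the 10 members matched by gene ID, with 6 windows. They were searched on both strands for CTTTGAA and CTTTGAT, 7-base forms of the sequence that the TCF and LEF factors, the DNA-binding partners of beta-catenin, are known to recognise. The forms differ in the last base and cannot overlap each other at the same place. A match was present in 8.65% of the 32851 windows in the table and in 2 of the 6 member windows, those of Slc1a2 and Lect2. The Slc1a2 window (chr2:102706188-102706487, + strand) and the Lect2 window (chr13:56548489-56548788, - strand) are shown because they hold a match, and the Axin2 window (chr11:108920099-108920398, + strand) because Axin2 had the highest value of the members. Each reads 5′ to 3′ along the gene, and capitals mark CTTTGAT, which lies on the opposite strand in both and so reads as its reverse complement.
Slc1a2: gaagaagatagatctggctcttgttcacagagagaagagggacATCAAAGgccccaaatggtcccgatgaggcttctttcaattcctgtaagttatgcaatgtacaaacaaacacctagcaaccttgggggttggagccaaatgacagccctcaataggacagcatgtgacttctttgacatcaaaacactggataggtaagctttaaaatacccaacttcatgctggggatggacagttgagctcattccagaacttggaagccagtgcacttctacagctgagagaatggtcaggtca
Lect2: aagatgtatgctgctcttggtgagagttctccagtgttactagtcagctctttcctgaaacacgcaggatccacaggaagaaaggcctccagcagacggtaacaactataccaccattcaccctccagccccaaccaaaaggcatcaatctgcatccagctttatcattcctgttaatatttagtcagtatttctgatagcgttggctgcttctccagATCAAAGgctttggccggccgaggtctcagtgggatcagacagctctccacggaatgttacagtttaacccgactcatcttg
Axin2: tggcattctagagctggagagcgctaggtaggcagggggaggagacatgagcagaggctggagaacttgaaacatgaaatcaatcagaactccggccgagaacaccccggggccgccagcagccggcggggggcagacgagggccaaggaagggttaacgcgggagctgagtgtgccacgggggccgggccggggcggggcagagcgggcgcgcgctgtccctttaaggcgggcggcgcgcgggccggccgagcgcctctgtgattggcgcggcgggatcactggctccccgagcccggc
The match begins 207 bases before the annotated start in Slc1a2 and 32 bases before it in Lect2. The windows of Axin2, Glul and Rnf43 hold neither form of these letters within their 300 bases, which says nothing of sites elsewhere. Slc1a2 and Lect2 were the lowest and the third lowest member, but Lgr5, Tbx3, Znrf3, Rhbg and Rgn had no window to search. The place of Lect2 lies within the spread between probe sets given above. Whether a match goes with a lower value was not tested.

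Among the other members of metabolism and secretion, Glul, Rgn and Lect2 were bright on both arrays and Rhbg was dim. Glul encodes glutamine synthetase, the enzyme that joins ammonium to glutamate in the hepatocytes next to the central vein. Its brighter probe set had a signal of 7909 after sham surgery and 5709 after kidney injury, 1.38-fold lower. Its second probe set had signals of 3425 and 2687, 1.27-fold lower. Both Glul probe sets thus had the lower signal in the kidney injury pool, by less than 2-fold. Rgn encodes regucalcin, a calcium-binding protein that also serves as the gluconolactonase of ascorbate synthesis in mice. It had signals of 17222 and 11201 in its 1 probe set, 1.54-fold lower. Lect2 encodes a protein that hepatocytes secrete into plasma, first described as a chemotactic factor for leukocytes. It had signals of 1783 and 1063 in its 1 probe set, 1.67-fold lower. Glul, Rgn and Lect2 were among the brightest 25% of genes by mean log2 signal, where 11% of 3280 genes were lower by 2-fold or more, and none of the 3 members was. This mean uses both arrays, so a gene much lower after kidney injury can fall out of that set. With only 3 members, the count says little. Rhbg encodes an ammonium transporter of the Rhesus family found in the hepatocytes that also make glutamine synthetase. Its signals of 118.1 and 69.1 were dim on both arrays, so no fold is given.

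Among the members that feed back on the pathway, Lgr5 and Znrf3 had lower signals after kidney injury and Axin2 did not. Lgr5 had signals of 1177 after sham surgery and 831.7 after kidney injury, 1.41-fold lower. A second Lgr5 probe set was dim in both, with 205.0 and 251.1. Znrf3 had signals of 668.7 and 305.9, a log2 difference of -1.09. Its second probe set had 266.4 and 196.4, at least 1.05-fold lower. The 2-fold call of Znrf3 rests on the first probe set, since the mean of both gave -0.75, the smaller of both -0.41, and a pseudocount of 64 gave -0.99. Rnf43, its paralogue, had signals of 223.9 and 20.8, both dim, and only its sham signal came near the array median. No fold is given for it. Axin2, often read as a general reporter of Wnt activity, had signals of 288.0 and 355.8 in the probe set above both medians, 1.22-fold higher. Its other probe set had 82.8 and 17.8, dim on both arrays, and gives no fold. Both Axin2 probe sets are thus near or under the array medians.

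Tbx3 encodes a T-box transcription factor whose gene is a beta-catenin target in liver. Its brightest probe set had signals of 603.3 after sham surgery and 702.2 after kidney injury, 1.16-fold higher. A second had 205.2 and 345.5, at least 1.32-fold higher. The other 3 were dim on both arrays, with signals from 36.7 to 174.8, and 1 of these carries the _x_at suffix, which marks possible cross-hybridisation. With 18 hybridisation control probe sets as the reference, each brighter in the kidney injury pool with a median log2 difference of 0.28, Tbx3 moved to -0.07 and Axin2 to 0.01. The direction of Tbx3 therefore depends on the reference. By the same reference Lect2 moved to -1.02.

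**Figure D2:**
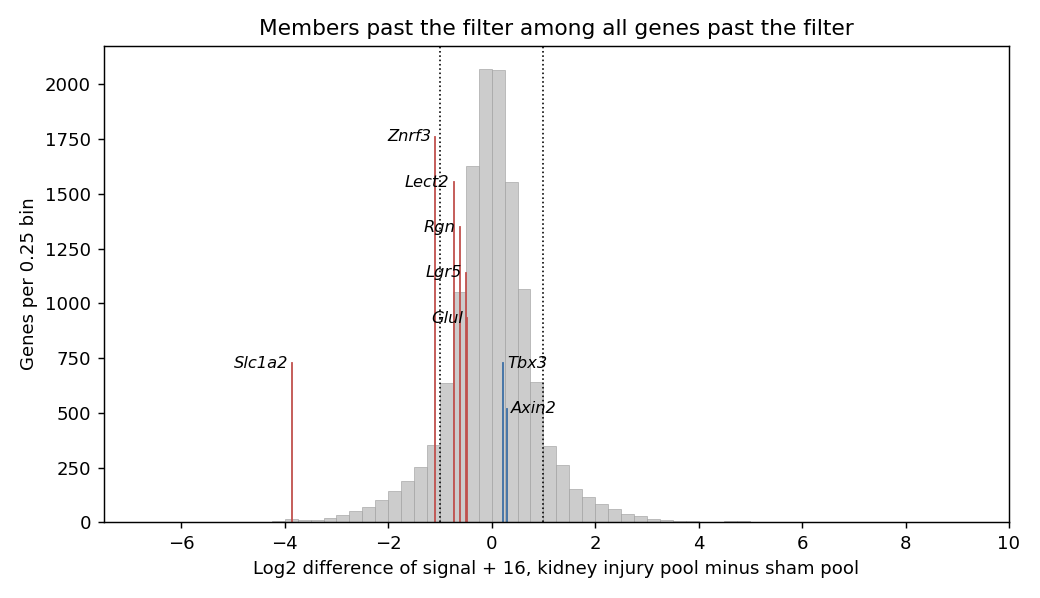
Log2 difference of signal plus 16, kidney injury pool minus sham pool, for the 13117 genes past the filter (grey bars, genes per bin of 0.25), with the 8 members past the filter as lines whose height carries no value. Dotted lines mark 2-fold; Slc1a2, drawn at its measured -3.85 from a dim kidney injury signal, lies in the sparse lower tail, Znrf3 at -1.09 just past 2-fold, and the other 6 members between the dotted lines.

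Of 38 other pericentral hepatocyte genes, none of them a member, 34 passed the filter, and 31 had lower and 3 higher signals after kidney injury. Of the 34, 17 were past 2-fold on the lower side and 2 on the higher side, with a median log2 difference of -0.98. The lowest were Slco1b2, an uptake transporter for organic anions (-4.11), the bile acid enzyme Cyp7a1 (-3.19), and Aldh1a1, a retinaldehyde dehydrogenase (-2.59). Cyp2e1, an ethanol-oxidising cytochrome P450, had signals of 48177 after sham surgery and 46136 after kidney injury (log2 difference -0.06). Cyp1a2 had 16418 and 7331 (-1.16), and Oat, ornithine aminotransferase, 14776 and 7205 (-1.03). The highest were the tight-junction gene Cldn2, with 888.9 and 3314 (1.88), the vasopressin receptor Avpr1a (1.23) and Mgst1 (0.41, but -0.06 by quantile normalization), each with 2 probe sets of the same sign past the filter.

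Of 34 periportal genes, the counterpart at the other end of the lobule, 31 passed the filter, and 20 had lower and 11 higher signals, beside the 50.7% of all genes that were lower. Past the filter, 22 lay within 2-fold, and 9 were past 2-fold on the lower side and none on the higher side, with a median log2 difference of -0.45. Hal, histidine ammonia-lyase (-2.67), Etnppl (-2.59) and Cyp2f2, a periportal cytochrome P450 (-1.75), were the lowest. Ctsc (0.84), Tat (0.61) and Arg1, the arginase of the urea cycle (0.59), were the highest. Cdh1, E-cadherin, had a log2 difference of -0.07 and Ass1 one of 0.13, the latter from a probe set with signals of only 271.5 and 299.4. The member median of -0.56 lies between those of the other pericentral and the periportal genes, and with 1 array a group these medians were not tested against each other.

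**Figure D3:**
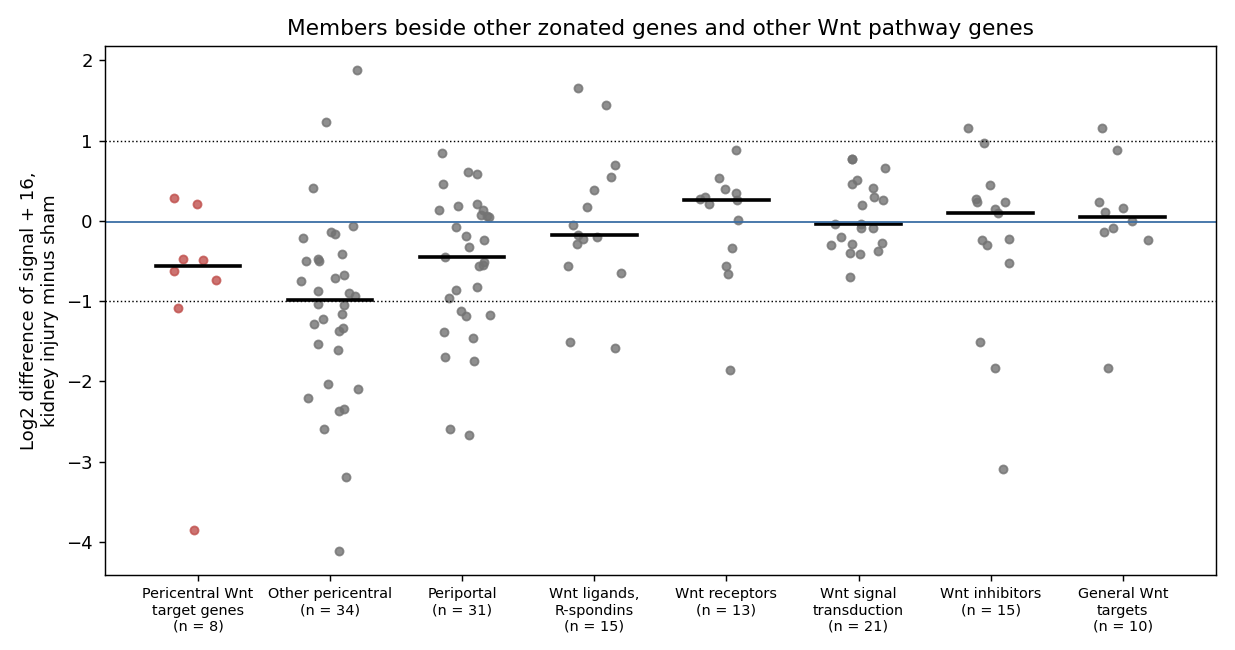
Log2 difference of signal plus 16, kidney injury pool minus sham pool, for the genes past the filter in the list of members (red) and in 7 other lists (grey), 1 point a gene, with sideways scatter for visibility only. Black bars are list medians, the blue line is the median of all genes at -0.01 and dotted lines mark 2-fold; the members' median is -0.56 and that of the other pericentral genes -0.98.

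Of the Wnt ligands, R-spondins and their secretion factors, 15 of 25 passed the filter, and 2 were past 2-fold on the lower side and 2 on the higher side (median log2 difference -0.17). The ligands that supply pericentral hepatocytes were hardly measured. Wnt2 had signals of 295.9 after sham surgery and 87.8 after kidney injury, at least 1.15-fold lower. Wnt9b and Rspo3 were dim in both pools in every probe set, with signals from 107.3 to 228.9 for Wnt9b and from 59.7 to 170.2 for Rspo3. Wnt1 (-1.51) and Wnt6 (-0.64) were the other lowest ligands. Wnt7b (1.66), Wnt7a (no less than 1.94-fold) and Wnt5a (no less than 1.54-fold) were the highest, and a second probe set of Wnt7b (-0.18) and of Wnt7a (-0.89) had the opposite sign.

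Of 17 receptors, 13 passed the filter, with 1 past 2-fold on the lower side and none on the higher side (median 0.25). That 1 was Lgr4, the R-spondin receptor found throughout the lobule and the relative of Lgr5, with signals of 2374 and 643.4 in 1 probe set, 3.62-fold lower. The co-receptor Lrp6 had 2023 and 1366 (-0.56), and Fzd7 stood at -0.66. Fzd5 (at least 1.21-fold), Fzd3 (at least 1.17-fold) and Ryk (0.39) were the highest. Fzd6 (0.34) had further probe sets at 2.38 and 1.62, and Ror1 (0.29) at 1.22 and 0.60, all dim in the sham pool. By its representing probe set, none of the 21 genes of signal transduction past the filter, of 23 listed, was past 2-fold in either direction (median -0.04). Further probe sets past the filter stood higher for Csnk1d (3.90), Tnks (1.79) and Gsk3b (1.55 and 1.03), and lower for Dvl1 (-1.08) and Bcl9l (-1.39). Of these, only Dvl1 and the Gsk3b value of 1.03 had no dim signal. Ctnnb1, beta-catenin itself, had signals of 6119 and 5032 (-0.28), with all 3 of its probe sets lower. Apc (0.30, with a second probe set at -0.18) and Tcf7l2 (-0.08) differed little. Axin1 (0.77), Csnk1d (0.77) and Tnks (0.66) were the highest, but the other Csnk1d probe sets past the filter ran from -0.64 to 3.90. Dvl2 (at least 1.27-fold lower), Bcl9l (-0.41) and Dvl3 (-0.39) were the lowest.

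Of 20 Wnt inhibitors, 15 passed the filter, with 3 past 2-fold on the lower side and 1 on the higher side (median 0.10). Notum, a secreted enzyme that inactivates Wnt proteins and is itself a Wnt target, had signals of 1959 after sham surgery and 538.7 after kidney injury, 3.56-fold lower. The co-repressor Tle4 (at least 1.79-fold lower) and Sfrp1 (at least 2.65-fold lower, by an _x_at probe set, which may cross-hybridise) were the other lowest. The other 2 Sfrp1 probe sets past the filter stood at -0.12 and 0.35. Under other choices of scaling, pseudocount, filter and probe set, Tle4 ranged from -3.49 to -0.29. Tle1 (1.16, with a second probe set at -0.13), Tle3 (0.97) and Kremen1 (0.44) were the highest. Of 15 general Wnt targets, a list that shares Notum, Nkd1 and Apcdd1 with the inhibitors, 10 passed the filter and 1 was past 2-fold in each direction (median 0.05). After Notum, the feedback inhibitor Nkd1 (-0.23) and the cyclin Ccnd1 (-0.14) were the lowest. Sox9 (1.16), Fosl1 (0.89) and Apcdd1 (0.23) were the highest. The same Sox9 value is counted again among the cholangiocyte markers below.

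Markers of other cells differed between the pools beside these values. The 8 hepatocyte markers past the filter, of 10, had a summed signal of 266586 after sham surgery and 371373 after kidney injury, so the liver identity of both pools was plain. Without Fgb the hepatocyte sums were 230848 and 285407, and 1 hepatocyte marker was past 2-fold on each side. Markers of central vein endothelium summed to 2630 and 9349 over 6 of 9 genes, 3 of them past 2-fold on the higher side and 1 on the lower side, with Wnt9b, Rspo3 and Kit dim. Without Fabp4 these sums were 2390.0 and 3666. Cholangiocyte markers summed to 571.8 and 2421, with 3 of 7 past the filter, all at least 2-fold higher, and Krt7 and Cftr dim. Pancreatic acinar markers summed to 4375 and 11608 over 7 of 10 genes, 5 of them at least 2-fold higher. Kupffer cell markers summed to 10692 and 7496 over 8 of 8 genes, 1 of them at least 2-fold lower. Sinusoidal endothelium markers summed to 8392 and 8486 over 8 of 8 genes, of which 6 were lower, and without Lyve1 to 8065 and 5745. Stellate cell markers summed to 9950.0 and 13274 over 7 of 8 genes, of which 5 were lower, and without Dcn to 5982 and 5236. Neutrophil markers summed to 4346 and 6081 over 6 of 8 genes, and without S100a8 to 4301 and 4674. Lymphocyte markers summed to 3072 and 3294 over 4 of 8 genes, and kidney tubule markers to 2637 and 2750 over 5 of 8. Past 2-fold in these lists were 1 higher and 2 lower markers of sinusoidal endothelium, 1 higher and 1 lower of stellate cells and 2 higher of neutrophils. Some markers past 2-fold are represented by probe sets that passed the filter in 1 pool only. For Thbd, Fabp4, Selp, Krt19, Epcam, Cpa1, Ctrb1, S100a8 and S100a9 this was the kidney injury pool, where they were higher. For Wnt2, Oit3 and Lrat it was the sham pool, where they were higher. The part of these markers in the members' differences was not tested.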

How the data were processed

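Liver RNA of 2 pools, sham and renal ischaemia-reperfusion, was hybridised to 1 array each. Groups come from the treatment label. Biotinylated cRNA was made with the standard Affymetrix procedure from 6 ug of Trizol-extracted RNA, per the labels' protocols. The deposited values are 1 intensity per probe set on a linear scale. Trimming 2% at either end gave a mean of 500.0 for each array, which shows scaling to a shared target. What software summarised the probes, and whether background was subtracted, was not given in the sources used here.

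Gene names came from the platform annotation, updated through Entrez IDs, and probe sets with several genes or none were not used. Differences of log2(signal + 16) were computed with Python 3.11.15 and pandas 2.3.3. With 1 array per group no test was possible and precision is limited by the number of arrays, so a 2-fold threshold described the genes. Of 45037 probe sets that are not controls, 21003 with 1 gene passed the filter. The steps were tested on simulated data, in which the probe sets of a gene shared the same change and differed less than here. That checks the computation and not how reliable a 2-fold call is in these pools. Named genes are all members, the 3 highest and 3 lowest past the filter of each pathway or zonation list, and a fixed panel of 20 genes. One of these, Gls2, was not analysed here. Cell marker lists fall under the same rule and are given by sums and counts instead. The members and lists were chosen with earlier results of these data known. Alternatives covered scaling, pseudocount, filter, choice of probe set and threshold.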

Additional observations from a re-analysis of the deposited data

How the results depend on the processing

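No paired analysis was possible because each group is 1 pool on 1 array. Neither of the 2 members past 2-fold, Slc1a2 and Znrf3, changed sign under the 13 alternatives of scaling, pseudocount, filter and probe set. Each had 2 probe sets past the filter, all lower, so the choice between these could not have changed a sign. The member median ranged from -0.84 to -0.45, the lowest with the hybridisation controls as the reference. The count of members at least 2-fold lower was 1 instead of 2 with a pseudocount of 64, with no dim signal allowed on either array (which removes Slc1a2), by the mean of probe sets, by the smallest difference and at 3-fold, and 4 at 1.5-fold. It was 0 higher under every one of these. Slc1a2 ranged from -4.14 to -2.84 and Znrf3 from -1.37 to -0.41.

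With the hybridisation controls as the reference, the median of all genes was -0.30 and medians were -1.27 for other pericentral genes (1 at least 2-fold higher), -0.73 for periportal genes, -0.45 for ligands, -0.030 for receptors, -0.32 for signal transduction, -0.19 for inhibitors, -0.23 for general targets and -0.48 for glutamine and ammonium handling. By the smallest difference, periportal genes stood at -0.19 and inhibitors at -0.12, and by the mean of probe sets inhibitors stood at -0.23. Signal transduction stood at 0.25 with a filter at the 75th percentile. At 3-fold, 9 other pericentral genes were lower and 1 higher, and 4 periportal genes were lower; at 1.5-fold, 3 periportal genes were higher. By the smallest difference, Gpt (0.59, also without probe sets that can cross-hybridise), Hsd17b6 (0.19), Tle1 (-0.13), Wnt7a (-0.89), Wnt7b (-0.18) and Apc (-0.18) changed sign. So did Ccnd1 (0.10), Gusb (0.39), Akr1a1 (0.05), Csnk1a1 (-0.10) and Hsd17b13 (0.08). By the mean of probe sets, Slc1a5 (-0.54), Akr1a1 (0.13), Sfrp5 (-1.16), Gsk3b (0.77), Atp5a1 (-0.19), Nkd2 (-0.15), Btrc (0.05) and Igf1 (-0.01) did. The causes were not tested. Signal over background limits Axin2, Rnf43, Rhbg, Wnt9b and Rspo3.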

Other observations

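Genes around the members' own reactions were also measured. Of 24 genes that handle glutamine, glutamate and ammonium, 16 passed the filter, with a median log2 difference of -0.19. Past 2-fold after kidney injury were 5 on the lower side and 2 on the higher side, beside 9.59% and 8.71% of all genes past the filter. Of the 5, Oat was also counted among the other pericentral genes and Cps1 among the periportal genes. Slc38a3, the glutamine transporter of hepatocytes, had signals of 29060 after sham surgery and 7806 after kidney injury (-1.89), and Glud1, glutamate dehydrogenase, 11918 and 5320 (-1.16). Gpt, an alanine aminotransferase, stood at -1.39 by an _s_at probe set, which may cross-hybridise, and its other probe set had the opposite sign. Asns, asparagine synthetase, was 2.44-fold higher, and the amino acid transporter Slc7a5 at least 1.21-fold higher, while the probe sets of Slc1a5 opposed each other, with signals of 230.8 and 394.2 in one and 349.2 and 88.6 in the other. The other glutamate transporters Slc1a1 and Slc1a3 of the same family as Slc1a2 were dim in both pools.

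Ascorbate synthesis, the pathway of Rgn, had 5 of 6 listed genes past the filter, and 3 of them were at least 2-fold lower. Of these 3, Gulo was also counted among the other pericentral genes. Ugdh had signals of 6565 and 1786 (-1.87), Ugp2 11314 and 3475 (-1.70, lower in each of its 5 probe sets that passed), and Gulo, the last enzyme of the pathway, 7165 and 2763 (-1.37). Gusb (-0.39) and Akr1a1 (-0.15) were closer to no difference, and their probe sets disagreed in sign: the other Gusb probe set stood at 0.39, and the other 3 of Akr1a1 at 0.05 to 0.33.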
